A study of Saccharomyces cerevisiae with 12 samples.

Results

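The response of anc1Δ cells to methyl methanesulfonate (MMS) was measured on 6 of the 12 Affymetrix YG-S98 expression arrays of the series, 3 of MMS-treated and 3 of untreated anc1Δ cells, which were chosen by the sample titles. The anc1Δ strain of Saccharomyces cerevisiae carries the allele anc1::G418R in a MATa haploid background congenic with BY4741, with the deletions his3Δ1, leu2Δ0, met15Δ0 and ura3Δ0. These 4 deletions are shared by the wildtype cells. The mutant is 1 strain and lacks Anc1, also named Taf14, a small protein found in the chromatin complexes INO80, NuA3, RSC and SWI/SNF and in TFIID, TFIIF and Mediator. The other 6 arrays came from wildtype cells of that background, 3 untreated and 3 treated with MMS, and serve here only to show where the response of anc1Δ cells differed. For RNA the methods describe 3 separate colonies per strain, grown to log phase in the rich medium YPD. The study describes the mutant as slow to grow. The dose of MMS and the length of exposure behind these arrays are not stated in the sources used here, nor is whether each treated culture came from its own colony. The p-values therefore cover only the spread between these samples, part of which may be technical. The descriptions of 3 of the 6 anc1Δ samples (untreated replicates 1 and 3 and MMS replicate 3) name wildtype, and the source names of 3 wildtype samples with MMS call them untreated.

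MMS methylates DNA bases, and the lesions it leaves block the replication fork. In yeast the DNA glycosylase Mag1 opens base excision repair of the methylated bases, while the kinases Mec1, Rad53 and Dun1 carry a checkpoint signal that raises ribonucleotide reductase and slows S phase. MMS also reacts with proteins and with glutathione, and treated yeast is known to induce proteasome, chaperone and oxidative stress genes and to repress genes of ribosome production.

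ANC1 (TAF14) lay near the floor of the arrays on all 6 anc1Δ arrays. Its intensity, normalized by robust multi-array average (RMA) and deposited on the linear scale, was 6.87, 15.7 and 8.71 in the untreated replicates and 8.37, 14.2 and 8.07 in the MMS replicates, against means of 285 and 189 in wildtype. The 3 arrays whose descriptions name wildtype thus held as little ANC1 signal as the other 3. URA3, deleted in the background, measured 9.44, 17.2 and 9.79 untreated and 9.66, 10.1 and 10.7 with MMS, and MET17 (MET15) lay at 8.45, 11.5 and 11.5 and 6.02, 7.59 and 8.18. LEU2, also deleted, lay at 39.7, 64.5 and 43.9 untreated and 30.4, 33.1 and 36.5 with MMS, and HIS3, where the his3Δ1 allele removes part of the gene, at 814, 805 and 819.6 and 1156, 1092 and 1179. The first 2 deleted genes were thus near the floor, LEU2 was dim and HIS3 was not. None of the 7 a-specific mating genes, the markers of a MATa cell, was called in the MMS response. Among 4 alpha-specific mating genes SAG1 rose (log2 change 0.70), MF(ALPHA)1 fell (-0.74) and 2 were not called. SAG1 measured 73.6, 74.7 and 74.4 untreated and 122, 125 and 114 with MMS. MF(ALPHA)1 was dim, at 32.4, 34.1 and 35.4 untreated and 19.2, 17.7 and 24.5 with MMS. No call was made in any of 12 meiosis and sporulation genes (1 of them rose without untreated replicate 3 or MMS replicate 1). The median intensity of the anc1Δ arrays was 104 to 105 without and 106 to 108 with MMS. Within an anc1Δ group the log2 values of the arrays correlated with r of 0.9929 to 0.9966 across probe sets. In wildtype the median intensity was 106 to 109 without and 115 to 119.8 with MMS, and r was 0.9885 to 0.9929 and 0.9950 to 0.9970. The median SD of the log2 values within a group was 0.168 in untreated wildtype and 0.106 to 0.114 in the other groups. For the actin control, the signal at the 3' end over that at the 5' end, which rises as RNA breaks down, was 1.74 to 1.85 in the untreated and 3.43 to 4.0 on the MMS arrays of anc1Δ cells, and in wildtype it was 1.47 to 1.68 without and 3.31 to 3.85 with MMS. For the TATA-binding protein control it was 3.87 to 4.65 untreated and 5.16, 4.69 and 7.09 in MMS replicates 1, 2 and 3. The actin ratio thus moved with the treatment in both strains and MMS replicate 3 of anc1Δ stood highest in the other, and their part in the MMS responses was not tested. Without that array 884 genes were called higher and 887 lower, against 907 and 886 with it.

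Of 5656 genes measured, 907 rose (16.0%) and 886 fell (15.7%) with MMS in anc1Δ cells, together 1793 or 31.7%. Calls required limma's p, adjusted by Benjamini-Hochberg, to be under 0.05 and the change to be at least 1.5-fold. The adjusted p alone was passed by 1658 genes that were higher and 1674 that were lower. At least 2-fold changes were seen in 353 risen and 308 fallen genes, at least 4-fold changes in 42 and 32, and at least 8-fold changes in 14 and 4. The largest rises were thus larger than the largest falls. The median log2 change over all genes was -0.01, with an SD over genes of 0.68. In 4000 genes (70.7%) all 3 MMS arrays were above, or all were below, the 3 untreated arrays, among them 1789 of the 1793 called. The smallest p of an exact permutation test with 3 arrays in each condition is 0.1. RNA came from whole cultures, so that fewer cells of a kind and less RNA per cell cannot be told apart.

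The 12 largest rises ranged from 3.20 to 5.89 on the log2 scale. OSI1, which encodes a putative oxidoreductase induced by oxidants, measured 37.0, 38.7 and 36.5 in the untreated replicates and 2399, 2284 and 2009 with MMS. All 3 MMS arrays thus lay far above the untreated ones, and the log2 change was 5.89 (SE 0.10, adjusted p = 1.10e-12). FLR1, a plasma membrane drug transporter, measured 253, 194 and 239.6 untreated and 6447, 5903 and 6401 with MMS, a log2 change of 4.78 (SE 0.14, adjusted p = 6.96e-11). SRX1, the sulfiredoxin that restores oxidized peroxiredoxins, measured 376, 494 and 403 and 7171, 6284 and 7729, a change of 4.06 (SE 0.18, adjusted p = 3.30e-09). The groups overlapped in neither gene, which the choice of these 12 genes required and which held in 70.7% of all genes. SSU1, the sulfite pump, went from 266, 265 and 286 to 4449, 3666 and 3718, a log2 change of 3.85 (SE 0.11, adjusted p = 6.96e-11). GTT2, a glutathione S-transferase, went from 219, 216 and 228 to 2931, 2637 and 3016, a log2 change of 3.69 (SE 0.10, adjusted p = 6.85e-11). YHB1, the flavohemoglobin that detoxifies nitric oxide, measured 526, 548 and 619 and then 7447, 6797 and 7469.7, a change of 3.68. Each of these 3 genes rose more than 8-fold and showed little spread within a group. The glutathione peroxidase gene GPX2 rose from 104, 97.0 and 102 to 953, 939.8 and 896 (log2 change 3.20), and ISU2, a scaffold for iron-sulfur clusters, from 316, 366 and 390.3 to 3744, 3406 and 3881 (3.37). The NADPH dehydrogenase gene OYE3 rose by 3.38 and YLR460C, an oxidoreductase-like gene, from 20.7, 45.0 and 26.1 to 309, 283 and 309.5 (3.37), where the untreated mean was among the dimmest 25% of probe sets and the size of the rise is uncertain. Of the aryl-alcohol dehydrogenase genes, AAD4 changed by 4.89 and AAD6 by 4.27, where the untreated level of AAD6, 10.5, 15.5 and 14.1, was near the floor and leaves the size of its rise uncertain. AAD4, YHB1 and some other genes named below (RNR3, HSP82, RPL17A, RPS22B, IMD2 and RDN18-1, and LEU2 above) were read by probe sets of a kind that can also match related sequences.

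**Figure D1:**
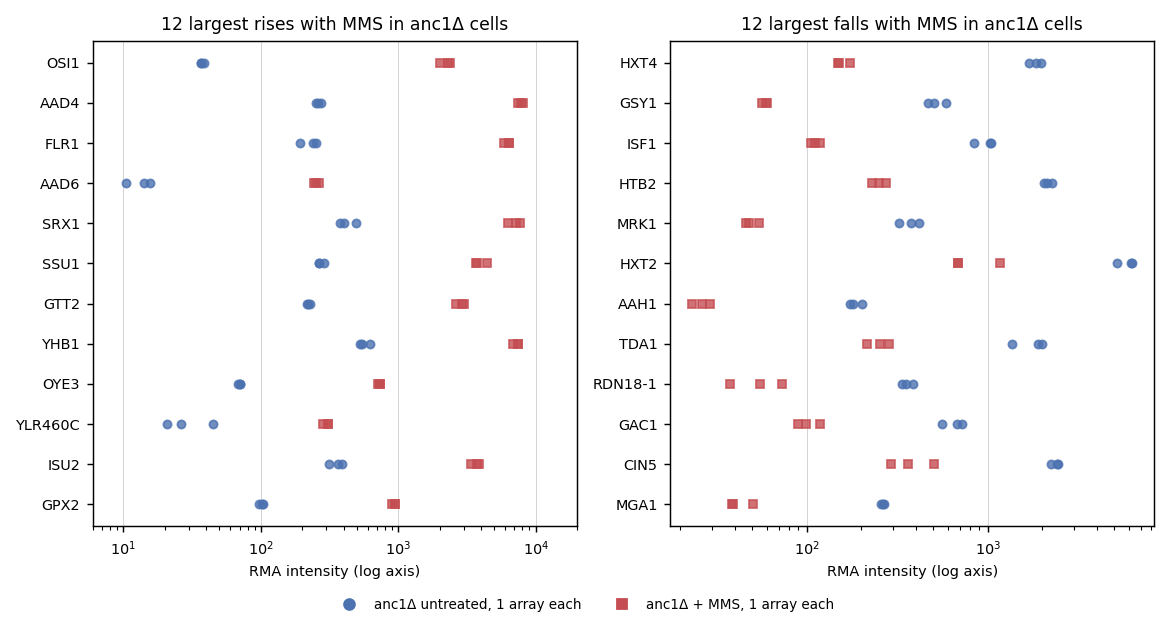
The RMA intensity (log axis) of the 12 genes with the largest rises (left) and the 12 with the largest falls (right) in anc1Δ cells, with 1 circle for each untreated and 1 square for each MMS array (3 of each). The genes were chosen among those whose conditions did not overlap, as in 70.7% of all genes. OSI1 spans the widest distance, from 36.5 to 38.7 untreated to 2009 to 2399 with MMS.

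The 12 largest falls ranged from -3.55 to -2.63 on the log2 scale. HXT4, a high-affinity glucose transporter, measured 1694, 1975 and 1858 in the untreated replicates and 173, 149 and 151 with MMS, a log2 change of -3.55 (SE 0.31, adjusted p = 1.03e-06). HXT2, another high-affinity transporter, fell from 6299.6, 6191 and 5192 to 1163, 682 and 682, a log2 change of -2.85 (SE 0.39, adjusted p = 5.68e-05). Every MMS array lay below every untreated array in both, as the choice of these 12 genes required. GSY1, a glycogen synthase, measured 506, 591 and 466 and 56.5, 59.5 and 60.5, a change of -3.14 (SE 0.43, adjusted p = 4.96e-05), and GAC1, a regulatory subunit that directs a phosphatase to glycogen synthase, changed by -2.69. HTB2, one of the genes for histone H2B, measured 2256, 2048 and 2126 and 249.9, 273 and 230.3, a change of -3.10 (SE 0.10, adjusted p = 1.09e-10). AAH1, the adenine deaminase, measured 202, 181 and 173 and 23.3, 29.3 and 26.5, a change of -2.82. The MMS values of AAH1 were among the dimmest 25% of probe sets. The kinase genes MRK1 and TDA1 changed by -2.91 and -2.79, the transcription factor genes CIN5 and MGA1 by -2.65 and -2.63, and ISF1, known for its part in mitochondrial RNA processing, by -3.10. The signal of RDN18-1, the 18S ribosomal RNA, changed by -2.74. In it, MMS replicate 3 was lowest and MMS replicate 1 highest among 73.1, 55.3 and 37.7. Other ribosomal RNA probe sets differed widely. The dimmer ones of RDN37-1 changed by -4.93 to 0.38, and those of RDN25-1 and RDN5-1 by -0.31 and 0.26. The value of RDN18-1 thus does not stand for ribosomal RNA as a whole.

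Among genes that repair methylated or broken DNA, part of each list rose and only TFB5 fell. In base excision and alkylation repair, 4 of 12 genes rose (33.3%, against 16.0% of all genes), 8 did not pass and the median log2 change was 0.17. MAG1 measured 70.9, 65.1 and 74.9 in untreated and 399.8, 388 and 399 in treated cells. The MMS arrays lay close together and all above the untreated ones, and the change was 2.50 (SE 0.11, adjusted p = 2.66e-09). RAD27, the flap endonuclease, rose by 1.22, the N-glycosylase gene NTG1 by 1.06 and the DNA ligase gene CDC9 by 0.62, which without MMS replicate 1 was 0.57 and under the fold limit. APN1, the main AP endonuclease, measured 224, 186 and 214 and 291, 260.4 and 305 and did not reach the fold limit (0.46, adjusted p = 0.00213). MGT1, the methyltransferase that removes O6-methylguanine, had a change of -0.27 (adjusted p = 0.0327) and was not called either.

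In nucleotide excision repair 7 of 19 genes rose (36.8%, against 16.0% of all genes) and 1 fell (5.26%, against 15.7%), with a median of 0.43. SSL2, a helicase of TFIIH, measured 138, 128 and 182 untreated and 464, 504 and 473 with MMS, a log2 change of 1.70 (SE 0.14, adjusted p = 4.96e-07). RAD2, the endonuclease that cuts 3' of a lesion, measured 246, 227 and 301 and 687, 705 and 709, a change of 1.45 (SE 0.10, adjusted p = 1.39e-07). Both genes separated fully by condition. RAD4 and RAD23, which recognize damage as a complex, rose by 0.94 and 0.91, and RAD7 and RAD16, partners in the repair of silent DNA, by 0.70 and 0.97. TFB5, a small subunit of TFIIH, fell by 1.0 on the log2 scale. In homologous recombination 6 of 19 genes rose (31.6%) and none fell (median 0.29). RAD54, a motor protein of recombination, measured 40.7, 44.8 and 42.0 untreated and 151, 156 and 165 with MMS, a change of 1.89 (SE 0.10, adjusted p = 2.33e-08). Its paralog RDH54 rose by 1.09, RAD59 by 0.97, RAD52 by 0.86 and the helicase gene SGS1 by 0.64, which was 0.56 without MMS replicate 2 and 0.55 without untreated replicate 3 and then under the fold limit. RAD50 of the Mre11 complex changed by 1.05 in its brightest probe set, but its 5 other probe sets gave 0.15 to 0.67, and the mean over its probe sets was 0.50 and not called.

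In postreplication repair and translesion synthesis 4 of 12 genes rose (33.3%, against 16.0% of all genes), none fell and 8 did not pass (median 0.09). UBC13, which with Mms2 builds ubiquitin chains on PCNA, measured 1119, 1292 and 1201 untreated and 2203, 2044 and 2359.7 with MMS, a log2 change of 0.87 (SE 0.11, adjusted p = 1.97e-05). RAD5, the helicase and ubiquitin ligase of the error-free branch, measured 81.8, 81.4 and 70.0 and 129, 135 and 131, a change of 0.76 (SE 0.13, adjusted p = 0.000371). RAD18, the ligase at the head of the pathway, measured 54.2, 61.1 and 62.1 and 102, 89.2 and 92.8, a change of 0.68 (SE 0.10, adjusted p = 9.38e-05). In these 3 genes the conditions did not overlap. POL30, which encodes PCNA, rose by 0.69 (SE 0.12, adjusted p = 0.000357). RAD6, the conjugating enzyme that pairs with Rad18, measured 195, 199.8 and 205 and 184, 161 and 179 (log2 change -0.20, adjusted p = 0.108), and MMS2 833, 827 and 900.3 and 730.4, 682 and 759 (-0.24, adjusted p = 0.0366). Neither was called, and their change was less than 1.5-fold. The translesion polymerase genes REV3 and RAD30 were not called, and RAD30, with REV7, lay among the dimmest 25% of probe sets. In mismatch repair 3 of 6 genes rose, with PMS1 at 0.86, MLH3 at 0.76 and EXO1 at 0.66.

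Ribonucleotide reductase makes deoxyribonucleotides and is the classical target of the checkpoint. Of 9 genes of the enzyme and its regulators 5 rose (55.6%, against 16.0% of all genes) and 2 fell (22.2%, against 15.7%). The median log2 change was 0.63. RNR3, the damage-inducible large subunit, measured 62.2, 77.6 and 74.7 in the untreated replicates and 118, 107 and 125 with MMS. All MMS arrays were above all untreated ones, and the change was 0.71 (SE 0.11, adjusted p = 0.000172). RNR2, a small subunit, measured 1645, 1633 and 1671 and 2828, 2862 and 3083 (0.82, adjusted p = 5.79e-06), and RNR4, the other small subunit, 2661, 2842 and 2792 and 4179, 4514 and 4144 (0.63, adjusted p = 3.22e-05). RNR1, the main large subunit, measured 346, 326 and 431 and 265, 228 and 293 (-0.49, adjusted p = 0.0237) and was not called, with its MMS arrays all below the untreated ones. The kinase gene DUN1 rose by 0.65 and RFX1 (CRT1), the repressor of these genes, by 0.92. SML1, an inhibitor protein of the enzyme, fell by 0.93 on the log2 scale and DIF1, which brings the small subunits into the nucleus, decreased by 0.69. HUG1, another small protein under checkpoint control, measured 28.1, 41.1 and 32.8 and 42.6, 36.6 and 44.9 and was not called (0.30, adjusted p = 0.115). Its conditions overlapped.

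In wildtype several of these genes rose further. RNR3 changed by 2.98 there, from a mean of 59.2 to 465, and the responses, anc1Δ minus wildtype, differed by -2.27 on the log2 scale (SE 0.16, adjusted p = 1.47e-06). HUG1 changed by 2.24 in wildtype, and its responses differed by -1.94 (SE 0.21, adjusted p = 4.00e-05). Of the 9 genes, 6 had a lower response in anc1Δ cells by the test of the difference, RNR1 among them with -0.78, and none had a higher one. The difference of RNR1 was not called without anc1Δ untreated replicate 3 (-0.66), anc1Δ MMS replicate 2 (-0.69) or wildtype MMS replicate 1 (-0.73). Over all genes the difference of the responses, anc1Δ minus wildtype, was called in 1347 (23.8%), with 542 higher (9.58%) and 805 lower (14.2%), or 666 and 627 with each array centred on its median, so that the direction of the majority depends on the scaling. RNR2 differed by -0.70, DUN1 by -0.80 and RFX1 by -0.79. The nucleotide excision repair genes RAD4, RAD7, RAD16 and RAD2 had lower responses as well, with differences of -1.11, -1.0, -1.08 and -0.64. That of RAD2 was -0.52 without anc1Δ untreated replicate 3 and was then not called. MAG1 changed by 2.58 in wildtype, and its responses differed by -0.08 (95% interval -0.41 to 0.25), which was not called. For RFA1 the difference was 0.16 (95% interval -0.11 to 0.44) and for UBC13 0.22 (95% interval -0.11 to 0.54), neither of them called.

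**Figure D2:**
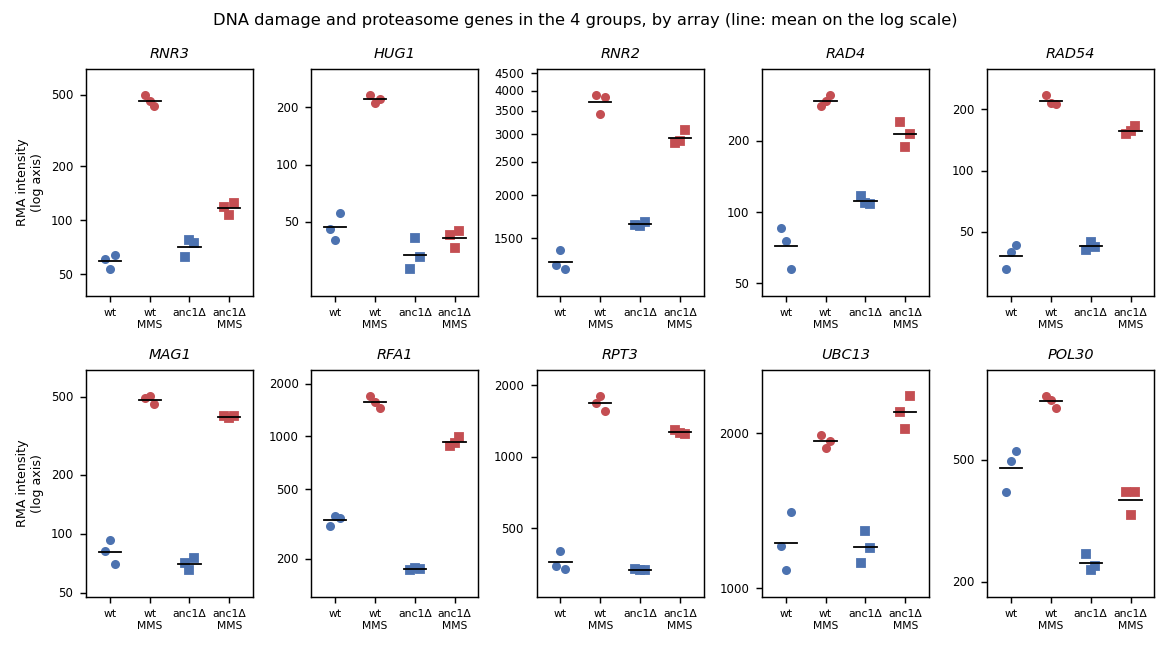
RMA intensity (log axis) of 10 DNA damage and proteasome genes on each of the 12 arrays, 3 per group, with a line at the mean of the log values. RNR3 and HUG1 rise in wildtype to means of 465 and 221, while the anc1Δ MMS arrays stay at or below 125 and 44.9, and MAG1 reaches 388 to 399.8 in anc1Δ and a mean of 484 in wildtype.

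Of 17 DNA damage checkpoint genes 8 rose (47.1%, against 16.0% of all genes) and none fell (median 0.54). MRC1, which relays the signal from stalled forks, measured 65.6, 51.2 and 58.6 untreated and 169, 132 and 157 with MMS, a log2 change of 1.38 (SE 0.13, adjusted p = 1.51e-06). Its partner TOF1 rose by 0.92. RAD17 of the checkpoint clamp rose by 1.05, the kinase gene RAD53 by 1.01, LCD1 (DDC2), the partner of Mec1, by 0.72, the securin gene PDS1 by 0.87 and the kinase gene CHK1 by 0.64, which without MMS replicate 1 was 0.57 and under the fold limit. MEC1 itself measured 67.0, 69.2 and 65.1 and 68.5, 65.7 and 59.3 and was not called. Only 1 of the 17, DUN1, responded differently from wildtype by the test, against 23.8% of all genes. Of 43 genes of the replication machinery 16 rose (37.2%) and none fell (median 0.29). RFA1, the large subunit of the single-strand binding protein RPA, measured 172, 178 and 176 and 886, 915 and 987, a change of 2.40 (SE 0.09, adjusted p = 7.87e-10). RFA2 and RFA3, its other subunits, rose by 1.53 and 0.69, the helicase gene MCM5 by 1.14 and CDC45 by 1.16. The 4 histone genes with a probe set of their own all fell, and their log2 changes were -3.10 for HTB2, -1.77 for the linker histone gene HHO1, -1.11 for HTZ1 (H2A.Z) and -1.10 for HTB1.

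Nearly all proteasome genes rose. Of 33 subunit genes 32 rose (97.0%, against 16.0% of all genes) with a median log2 change of 1.21, and PUP3 was short of the fold limit at 0.53 (0.60 and called without MMS replicate 2). RPT3, an ATPase of the regulatory particle, measured 337, 332 and 333 untreated and 1296, 1259 and 1253 with MMS, a change of 1.93 (SE 0.09, adjusted p = 5.59e-09). RPN1, of the same particle, rose by 1.57, and PUP1, a catalytic subunit of the core particle, measured 886, 910.0 and 926 and 2175, 2135 and 2424 (1.30). The arrays of the conditions did not overlap in these genes. RPN4, the transcription factor of proteasome genes, measured 883, 816 and 776 and 1620.1, 1482 and 1545, a change of 0.91 (SE 0.16, adjusted p = 0.000326). Of 26 genes of proteasome assembly and ubiquitin handling 21 rose (80.8%) and none fell (median 0.99). DDI1, a ubiquitin receptor that shares its promoter region with MAG1, measured 289.8, 286 and 292 and 1765, 1866 and 1833, a change of 2.65 (SE 0.11, adjusted p = 1.99e-09). UFD1 and NPL4, partners of the segregase Cdc48, rose by 2.10 and 2.10, CDC48 itself by 0.84 and the polyubiquitin gene UBI4 by 1.38. In wildtype all 33 subunit genes rose, with a median of 1.42. Of the 33, 3 responded less in anc1Δ cells, against 14.2% of all genes.

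Of 26 heat shock and chaperone genes 18 rose (69.2%, against 16.0% of all genes) and none fell (median 0.94). HSF1, the heat shock transcription factor, measured 266, 273 and 280.2 untreated and 1135, 935 and 1095 with MMS, a change of 1.95 (SE 0.09, adjusted p = 6.62e-09). SSA3, an inducible Hsp70 chaperone, measured 507, 455 and 484 untreated and 1999, 2090.1 and 2072 with MMS, a change of 2.09. SSA4, another, measured 2336, 2368 and 2544 and 6822, 7119.8 and 7155, a change of 1.54. These 3 genes separated fully by condition. HSP82, an Hsp90, rose by 1.31, its cochaperone gene STI1 by 1.27 and the disaggregase gene HSP104 by 0.80. The small heat shock protein gene HSP26 measured 5636, 4996 and 5110.4 untreated and 7892, 7415 and 6979.9 with MMS and missed the fold limit (0.50, adjusted p = 0.00667). In wildtype it went from a mean of 817 to 4193, and the responses differed by -1.87 (SE 0.19, adjusted p = 2.48e-05). The anc1Δ arrays were thus above the wildtype arrays in either condition. Of the 26 genes, 12 had a lower response in anc1Δ cells (against 14.2% of all genes) and 1, SSA3, a higher one (against 9.58%). The wildtype median was 1.75. In the endoplasmic reticulum list 3 of 16 genes rose (18.8%, near the share of all genes) and 1 fell, the former with the thiol oxidase gene ERO1 (2.09).

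General stress genes were divided. Of 25 such genes 6 rose (24.0%, against 16.0% of all genes), 8 fell (32.0%, against 15.7%) and 11 did not pass, with a median of -0.03. The response was lower than in wildtype in 20 of the 25, against 14.2% of all genes. In wildtype 17 rose and none fell (median 1.20). GRE2, a methylglyoxal reductase, measured 488, 439 and 448 and 3413, 3463 and 3098, a change of 2.86 (SE 0.11, adjusted p = 1.33e-09). HSP12, a membrane-associated stress protein, measured 14472, 13354 and 14279 and 15810.4, 14392 and 15238 (0.11, adjusted p = 0.545), where the conditions overlapped and the gene was not called. In wildtype its mean went from 4425 to 12472. The anc1Δ values of HSP12 were among the brightest on the arrays, and whether a further rise could be measured there was not tested. MSN4, a transcription factor of this program, fell from 894, 838 and 736 to 358, 314 and 311 (-1.33, adjusted p = 0.000112). The cell wall protein gene SPI1 fell in anc1Δ cells (-0.69) and rose in wildtype (0.73), but after quantile normalization its change in anc1Δ cells was -0.53 and not called. Of 36 autophagy genes 10 rose (27.8%) and none fell (1 without untreated replicate 1; median 0.32), with the kinase gene ATG1 at 1.41 and ATG8 at 1.06, and 19 had a lower response than in wildtype.

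Of 35 genes of thioredoxin, glutathione and oxidative stress 18 rose (51.4%, against 16.0% of all genes), 1 fell and 16 did not pass (median 0.66), against 25 risen in wildtype (median 0.84). In 3 of the 35 the response was higher and in 9 lower than in wildtype, against 9.58% and 14.2% of all genes. YAP1, the transcription factor that governs many of them, measured 156, 159 and 175 untreated and 582, 446 and 445 with MMS, a change of 1.57 (SE 0.12, adjusted p = 2.45e-07). TRR1, the thioredoxin reductase, measured 1403, 1477 and 1449 and 4145, 3901 and 4094, a change of 1.49 (SE 0.09, adjusted p = 4.32e-08). GLR1, the glutathione reductase, rose by 1.43, GSH1, the first enzyme of glutathione synthesis, by 1.54, TRX2 by 1.16 and the oxidoreductase gene OYE2 by 1.98. In GSH1 the MMS replicates measured 256, 264 and 153, with replicate 3 lowest, and still all lay above the untreated arrays at 89.6, 66.3 and 70.8. GRX4, a glutaredoxin, fell by 0.61 on the log2 scale, which without MMS replicate 2 was -0.54 and under the fold limit. Of 19 multidrug resistance genes 8 rose (42.1%) and 3 fell (15.8%), with the transporter gene ATR1 at 3.16 beside FLR1, SNQ2 at 1.15 and PDR15, another transporter gene, at -0.89. Of 19 iron uptake genes 6 rose (31.6%) and 1 fell, with the siderophore transporter gene ARN1 at 2.45, the mRNA decay factor gene TIS11 at 2.00 and the multicopper oxidase gene FET3 at -0.76.

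A larger rise in anc1Δ than in wildtype cells was seen in 14 of the 822 genes that rose in both strains, by the test of the difference. They were AAD4, AAD6, DIA1, FLR1, FRE1, GPX2, ISU2, OSI1, OYE2, SLF1, SSA3, SSU1, TRR1 and YHB1. OSI1 changed by 3.43 in wildtype, from a mean of 33.0 to 357, and its responses differed by 2.46 (SE 0.15, adjusted p = 5.99e-07). GPX2 changed by 1.71 there, with a difference of 1.49 (SE 0.12, adjusted p = 3.50e-06), and SSU1 by 2.29, with a difference of 1.56. Among these 14, SSU1 had a higher untreated mean in wildtype (763) than in anc1Δ cells, whereas the MMS means were 3716 in wildtype and 3666 to 4449 on the anc1Δ arrays.

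Genes of ribosome production fell in part, and fewer of them than in wildtype. Of 80 cytosolic ribosomal protein genes 47 fell (58.8%, against 15.7% of all genes) and none rose, with a median log2 change of -0.62. RPS7A, of the small subunit, measured 2643, 2603 and 2828 untreated and 935, 857 and 843 with MMS, a change of -1.62 (SE 0.11, adjusted p = 8.89e-08). RPL17A, of the large subunit, measured 7297, 7736 and 7396 and 3325, 3204 and 3426, a change of -1.17 (SE 0.08, adjusted p = 1.94e-07). In wildtype 76 of the 80 fell, with a median of -1.31. A higher response in anc1Δ cells was called in 42 of the 80, against 9.58% of all genes, and a lower one in 1. RPS22B, for example, changed by -1.33 in anc1Δ cells and -2.91 in wildtype. Of 124 ribosome biogenesis genes 41 fell (33.1%) and 3 rose (median -0.33), against 90 and 1 in wildtype (median -1.05), and 68 of them had a higher response in anc1Δ cells. The helicase gene HAS1 changed by -1.43 and the nucleolar protein gene NSR1 by -1.31. Of 22 genes of RNA polymerases I and III 10 fell (45.5%) and 1, the initiation factor gene RRN3, rose. RPA190, the largest subunit of polymerase I, changed by -1.31 and RRN3 by 1.06. Of 18 aminoacyl-tRNA synthetase genes 13 fell (72.2%, against 15.7% of all genes), with a median of -0.68, against 9 in wildtype (median -0.58). In 2 of the 18 the response was lower than in wildtype (against 14.2% of all genes) and in none higher. WRS1, for tryptophan, changed by -1.07. Of 30 translation factor genes 12 fell (40.0%, against 15.7% of all genes) and 1, the eIF2B subunit gene GCD1, rose (0.90). Of 67 mitochondrial ribosomal protein genes 22 fell (32.8%) and 1, RSM22, rose. RSM22 was not called without untreated replicate 2 or MMS replicate 1.

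**Figure D3:**
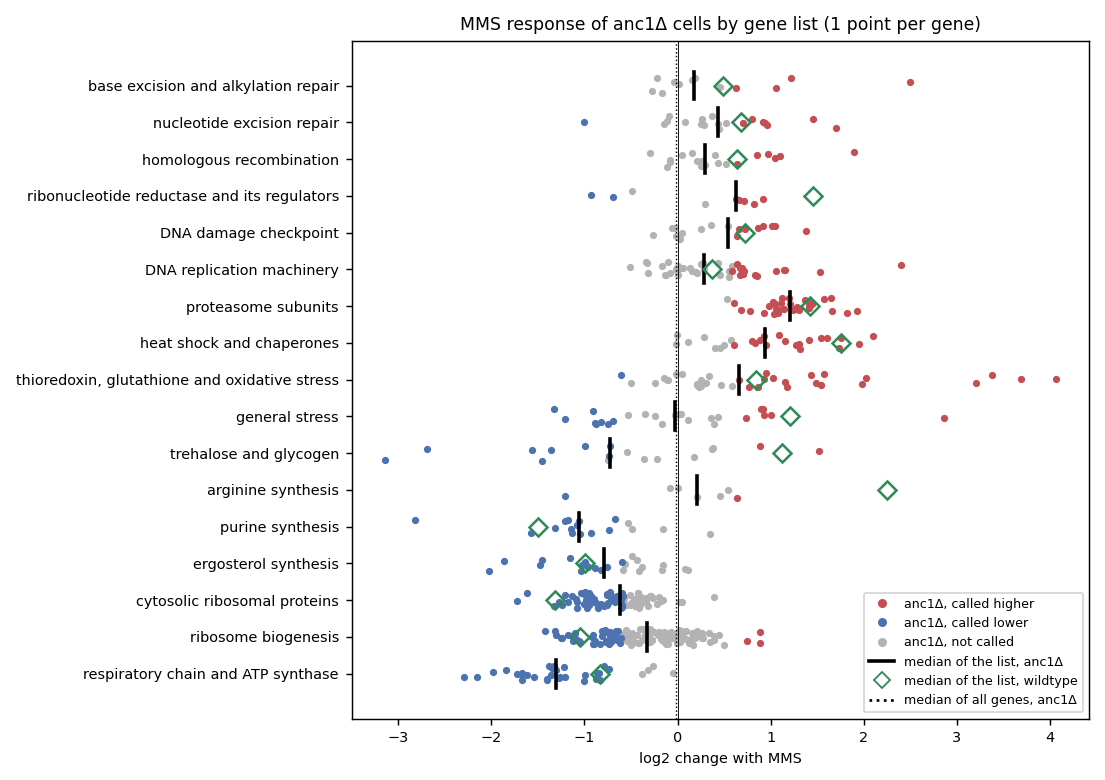
Log2 change with MMS in anc1Δ cells of each measured member of 17 gene lists (1 point per gene, coloured where called), with a bar at the list's median in anc1Δ and a diamond at its median in wildtype. The medians range from -1.30 (respiratory chain) to 1.21 (proteasome), and those of general stress, trehalose and glycogen, and arginine synthesis lie well below their wildtype medians of 1.20, 1.12 and 2.25.

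Of 33 respiratory chain and ATP synthase genes 29 fell (87.9%, against 15.7% of all genes), none rose and the median was -1.30. COX4, of cytochrome c oxidase, measured 1129, 1199.6 and 1243 untreated and 254, 274 and 272 with MMS, a change of -2.16 (SE 0.09, adjusted p = 2.66e-09). RIP1, the iron-sulfur protein of the cytochrome bc1 complex, measured 825, 836 and 760.1 and 204, 189.7 and 218, a change of -1.99 (SE 0.10, adjusted p = 9.11e-09). CYC1, the major cytochrome c, measured 475, 465 and 474 and 77.1, 104 and 109.8, a change of -2.30 (SE 0.13, adjusted p = 2.77e-08). In all 3 genes the MMS arrays lay below every untreated array. HAP4, an activator of respiratory genes, changed by -1.76. In wildtype 24 of the 33 fell (median -0.84), and 5 of the 33 differed between the strains, against 23.8% of all genes. The fall of CYC1 was smaller in anc1Δ cells, where the MMS level was 77.1 to 109.8 against 18.7 to 21.1 in wildtype and the responses differed by 2.36 (SE 0.19, adjusted p = 3.50e-06). Of 26 genes of the TCA cycle and related pathways 9 fell (34.6%) and 1 rose (3.85%, against 16.0% of all genes). The aconitase gene ACO1 changed by -0.85 and the peroxisomal citrate synthase gene CIT2 by 0.64. CIT2 was 0.54 without untreated replicate 1 and then under the fold limit, and 2 genes of the list rose without untreated replicate 2 or MMS replicate 1.

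Of 19 glycolysis and fermentation genes 8 fell (42.1%, against 15.7% of all genes) and none rose (median -0.35). HXK2, the main hexokinase, measured 2261, 2404 and 2286 untreated and 570.4, 523 and 608 with MMS, a change of -2.03 (SE 0.12, adjusted p = 2.77e-08). PFK1 and PFK2, the subunits of phosphofructokinase, changed by -1.45 and -1.46, and the isomerase gene PGI1 by -1.12. Of the lower part of the pathway ENO1, CDC19 and PYK2 fell, while TDH3, PGK1 and ENO2 did not pass. Of 15 hexose transporter and sensor genes 6 fell (40.0%) and none rose, with MTH1, a regulator of transporter genes, at -2.31 beside HXT4 and HXT2. In the pentose phosphate pathway 6 of 11 genes fell (54.5%) and 1 rose (9.09%, against 16.0% of all genes). RKI1, the ribose-phosphate isomerase, changed by -1.80, while ZWF1, the glucose-6-phosphate dehydrogenase, which supplies NADPH, rose from 1169, 1119.8 and 1020.3 to 2011, 2144 and 1890.1 (0.87, adjusted p = 4.26e-05).

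Trehalose and glycogen genes fell in part, whereas most of them rose in wildtype. Of 17 genes 8 fell (47.1%, against 15.7% of all genes), 2 rose (11.8%, against 16.0%) and 7 did not pass in anc1Δ cells (median -0.72). In wildtype 2 fell and 10 rose (median 1.12). A lower response in anc1Δ cells was called in 15 of the 17, against 14.2% of all genes. GSY2, the main glycogen synthase, measured 2945, 3276 and 2971 in untreated anc1Δ cells and 1577, 1612 and 1439 with MMS, a change of -0.99 (SE 0.23, adjusted p = 0.00325), while it rose in wildtype (0.73). GPH1, the glycogen phosphorylase, measured 1434, 1469 and 1392 and 464, 565 and 541, a change of -1.46 (SE 0.16, adjusted p = 8.56e-06). PGM2, a phosphoglucomutase, measured 3343, 3142 and 2795 and 1686, 1996 and 1890.4, a change of -0.74 (SE 0.24, adjusted p = 0.0207), with a rise of 1.26 in wildtype. Without untreated replicate 1 or MMS replicate 1 its adjusted p was 0.0626 or 0.0696, and the gene was not called. In these 3 genes every MMS array was below every untreated one. GDB1, the debranching enzyme, changed by -0.72 and GLC3, the branching enzyme, by -1.36. TPS1, the trehalose-phosphate synthase, was not called, at 4136, 4076 and 4106 untreated and 5460.5, 5178 and 5248 with MMS, while its wildtype mean rose from 1529.9 to 4333. The trehalase gene NTH1 rose in both strains, by 1.51 and 3.05. Untreated wildtype arrays spread widely in these genes, with replicate 3 lowest at 628 in GSY2 and 848 in PGM2.

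Of 7 arginine synthesis genes 1 rose and 1 fell (14.3% each, near the shares of all genes, median 0.21), against 6 risen in wildtype (median 2.25). A lower response in anc1Δ cells was called in 6 of the 7, against 14.2% of all genes. ARG1, the argininosuccinate synthetase, measured 1272, 1239 and 1270.2 untreated and 620.2, 517 and 505 with MMS, a change of -1.21 (SE 0.10, adjusted p = 4.33e-07). In wildtype its mean rose from 510.0 to 2667, and the responses differed by -3.60 (SE 0.14, adjusted p = 1.45e-08), the most negative difference of all genes measured. ARG3, the ornithine carbamoyltransferase, measured 116, 83.5 and 135 and 157, 154 and 168 and missed the fold limit (0.54, adjusted p = 0.00659), against a change of 3.49 in wildtype. It was called without untreated replicate 1 (0.59) or 3 (0.70). ARG4, argininosuccinate lyase, was not called at 965, 1067 and 1143 and 1135, 1257 and 1282, and changed by 2.43 in wildtype. CPA1, the carbamoyl phosphate synthetase, rose by 0.64. Of 9 lysine genes 2 rose and 2 fell in anc1Δ cells (22.2% each, against 16.0% and 15.7% of all genes, median -0.06). In 6 of the 9 the response was lower than in wildtype. LYS1, the last enzyme of the pathway, measured 263, 261 and 296 and 508, 452 and 502 (0.84), against a change of 2.58 in wildtype. LYS20, the homocitrate synthase, changed by 1.46 against 2.42. LYS12 and LYS4 fell (-0.94 and -0.70), and their differences from wildtype were not called. Of 15 aromatic amino acid genes 3 rose and 2 fell in anc1Δ cells, shares near the 16.0% and 15.7% of all genes. In wildtype 11 of the 15 rose, and 11 had a lower response in anc1Δ cells. ARO4, which opens the pathway, fell by 1.41 on the log2 scale and ARO10, a decarboxylase of amino acid breakdown, rose by 1.56. GCN4, the transcription factor of amino acid synthesis, was not called in either strain at the level of its mRNA.

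**Figure D4:**
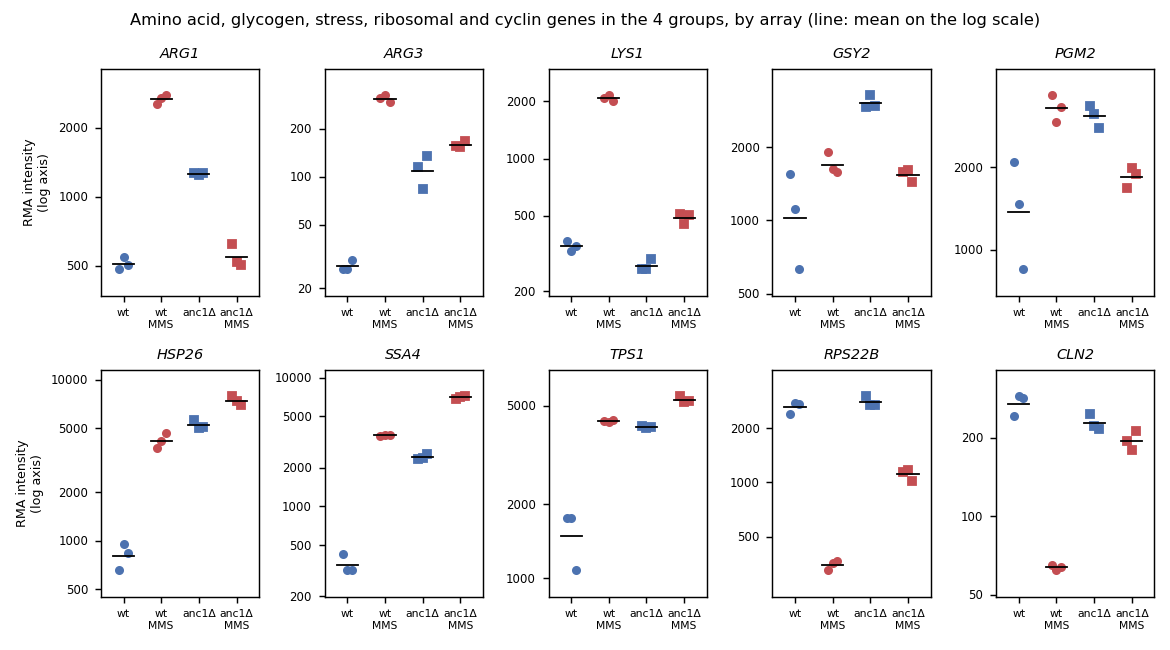
RMA intensity (log axis) of 10 genes of amino acid synthesis, glycogen and trehalose, stress, the ribosome and the cell cycle on each of the 12 arrays, 3 per group, with a line at the mean of the log values. ARG1 falls to 620.2, 517 and 505 with MMS in anc1Δ cells and rises to a mean of 2667 in wildtype, and HSP26 and SSA4 lie at 4996 to 5636 and 2336 to 2544 in anc1Δ cells before any MMS.

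In the methionine and methyl cycle 9 of 30 genes rose (30.0%, against 16.0% of all genes) and 6 fell. SAH1, the S-adenosylhomocysteine hydrolase, measured 1098, 1054 and 1095 untreated and 261, 228 and 243 with MMS, a change of -2.15 (SE 0.12, adjusted p = 2.93e-08). SAM1, an S-adenosylmethionine synthetase, measured 562, 556 and 535 and 193, 171 and 161, a change of -1.66 (SE 0.10, adjusted p = 3.52e-08), and MET6, the methionine synthase, changed by -1.28. The risen genes included MET4, the pathway's transcriptional activator (1.25), and the methionine permease gene MUP1 (0.93). Of 17 purine synthesis genes 13 fell (76.5%, against 15.7% of all genes) and none rose (median -1.06), with the IMP dehydrogenase genes IMD4 and IMD2 at -1.58 and -1.21 and GUA1, the GMP synthase, at -1.15. In 8 of the 17 the response was higher than in wildtype (against 9.58% of all genes), where 16 fell (median -1.49). Pyrimidine genes fell in 4 of 10 cases (40.0%), with the CTP synthase gene URA7 at -1.56 and URA1, the dihydroorotate dehydrogenase, at -1.38. Of 24 ergosterol synthesis genes 14 fell (58.3%) and none rose (median -0.79). ERG3, the C-5 desaturase, measured 2419.7, 2430.0 and 2652 and 686, 687 and 692, a change of -1.86 (SE 0.09, adjusted p = 5.77e-09), and ERG5, the C-22 desaturase, changed by -2.02. Of 27 cell wall genes 14 fell (51.9%) and 2 rose (median -0.61), the latter 1 without untreated replicate 2 or MMS replicate 1. CIS3, a structural mannoprotein, measured 5915, 5455 and 5729 and 1158, 1193 and 1180.2, a change of -2.28 (SE 0.09, adjusted p = 7.87e-10), CWP1, another mannoprotein, changed by -2.15 and FKS1, a glucan synthase subunit, by -1.47.

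Of 22 transcripts of the G1/S transition 4 rose and 4 fell (18.2% each), near the 16.0% and 15.7% of all genes, and the risen were the repair and replication genes RFA1, RAD27, CDC9 and POL30 already described. The G1 cyclin gene CLN1 measured 109.8, 103 and 99.0 untreated and 44.9, 43.8 and 46.5 with MMS, a change of -1.21 (SE 0.09, adjusted p = 2.03e-07), and CLN3, the upstream G1 cyclin, changed by -1.16. CLN2 measured 247, 223 and 217 and 195, 179 and 213 in anc1Δ cells, where it was not called, and changed by -2.09 in wildtype, so that the responses differed by 1.86 (SE 0.14, adjusted p = 2.54e-06). Of 14 genes of the G2/M cluster 5 fell (35.7%) and none rose (median -0.37), with the mitotic cyclin gene CLB1 at -1.52 and the chitin synthase gene CHS2 at -0.94. In wildtype 10 fell and 2 rose. Of the 14, 9 had a higher and 2 a lower response in anc1Δ cells, against 9.58% and 14.2% of all genes. Of 25 genes of the pheromone response 5 rose, a share near the 16.0% of all genes. Only 1 fell, a share below the 15.7% of all genes. The risen included the kinase gene STE11 (1.65) and GPA1, the G protein alpha subunit (1.02).

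Among the complexes that hold Anc1, 6 of 14 TFIID genes rose (42.9%, against 16.0% of all genes) and none fell (median 0.43), with TAF7 measuring 123, 121 and 107 untreated and 303, 286 and 289 with MMS, a change of 1.32 (SE 0.11, adjusted p = 6.29e-07), and TAF12 and TAF5 at 1.29 and 1.16. Both TFIIF partners of Anc1 rose, TFG1 from 225, 259.5 and 278 to 515, 511 and 517 (1.02) and TFG2 by 0.83. In SWI/SNF 4 of 11 rose (36.4%) and 1 fell. SNF5 measured 223, 224 and 219 and 635, 541 and 656, a change of 1.45, and SNF11, the small subunit, 218, 186 and 193 and 89.7, 88.9 and 96.5, a change of -1.12. The response of SNF11 was lower than in wildtype (difference -1.10). In RSC 3 of 16 rose (18.8%, near the share of all genes), in INO80 4 of 14 (28.6%), and in NuA3 none of 4 was called in either direction. In Mediator 6 of 25 rose (24.0%), with SIN4 at 1.20, and 1, SRB7, fell (-0.74), or 2 without untreated replicate 1 or without MMS replicate 1 or 3. Of the TFIID, TFIIF, RSC and NuA3 genes none responded differently from wildtype by the test, against 23.8% of all genes.

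Across genes, the responses of both strains correlated with r = 0.787 (Spearman's rho 0.787), a description over 5656 genes that are not independent replicates, and the SD of the log2 changes was 0.68 in anc1Δ and 0.93 in wildtype. Wildtype cells had 2744 genes called (48.5%), 1569 higher (27.7%) and 1175 lower (20.8%). Of the 907 genes that rose in anc1Δ cells, 822 (90.6%) also rose in wildtype, where they make up 52.4% of the risen. Of the 886 that fell, 635 (71.7%) also fell in wildtype, or 54.0% of the fallen there. Among the 822, the rise was smaller in anc1Δ cells in 175 and larger in 14 by the test of the difference. Among the 635 the fall was smaller in 192 and larger in 16. A further 415 genes rose only in the wildtype test and had a called lower response in anc1Δ cells, and 246 fell only in the wildtype test with a called higher response. Centring shifted the median difference of the responses over all genes from -0.08 to 0.01. In 1242 of the 1793 genes called in anc1Δ cells the difference from wildtype was not called.

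Opposite calls were rare. In 21 genes a fall in anc1Δ cells met a rise in wildtype, and in 1, the small nucleolar RNA gene SNR74, a rise met a fall, and all 22 had a called difference. The 21 were AIM17, ALD4, APA2, ARG1, ARO5, BNA1, GDB1, GIP2, GPT2, GRX4, GSY2, IGD1, MIG1, MTL1, PDR15, PGM2, PNS1, RTC2, RTN2, SPI1 and TMA17. The falls of PGM2, GRX4 and SPI1 were lost in some settings, as given above. ARO5 lay near the floor in anc1Δ cells. GSY2, GDB1, PGM2, IGD1 and GIP2 act in glycogen metabolism. MIG1, the glucose repressor, measured 435, 394 and 388 untreated and 212, 167 and 209 with MMS in anc1Δ cells, a change of -1.06 (SE 0.18, adjusted p = 0.000277), and rose by 0.62 in wildtype. ALD4, the mitochondrial aldehyde dehydrogenase, measured 5653, 5340.5 and 4957 and 2681, 2695 and 2353, a change of -1.05 (SE 0.13, adjusted p = 2.26e-05), and rose by 0.63 in wildtype. In both genes the untreated anc1Δ arrays were above the wildtype mean, at 188 for MIG1 and 1454 for ALD4.

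The largest differences of the responses, anc1Δ minus wildtype, lay in genes of varied function. YDL218W, of unknown function, measured 27.4, 37.6 and 34.3 in untreated and 272, 222 and 294 in treated anc1Δ cells (2.99), and had wildtype means of 19.0 and 18.0. The responses differed by 3.04 (SE 0.24, adjusted p = 4.34e-06). The wildtype means were among the dimmest 25% of probe sets, which leaves the size of the difference uncertain. HO, the mating-type endonuclease, was not called in anc1Δ cells at 51.6, 60.2 and 50.8 and 39.4, 46.9 and 46.7, and went from a mean of 269 to 34.1 in wildtype, a difference of 2.63 (SE 0.28, adjusted p = 3.65e-05). IZH4, a membrane protein linked to zinc, differed by 2.36. In the other direction ARO5 differed by -3.25, YNR068C by -3.12, ARG3 by -2.95, the cell wall protein gene PIR3 by -2.86 and TMT1, a methyltransferase, by -2.86. PIR3 measured 907, 941 and 970.1 and 1086, 815 and 814 in anc1Δ cells, with overlapping conditions, and its wildtype means were 94.8 and 637.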

How the data were processed

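RNA of 12 cultures was hybridized to Affymetrix YG-S98 arrays, and the authors deposited one RMA intensity per probe set on a linear scale, normalized together over the arrays per the methods. No version of RMA, date or batch is given in the sources used here. For arrays their number (3 per group) limits the precision. The methods' filter on present and absent calls was not used here.

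Of 9335 probe sets, 60 control probe sets were left out and 9275 were tested. Of these 6504 name 1 gene, 328 several and 2443 none, matched to current symbols through the platform's Entrez identifiers. The 5656 genes were read from their brightest probe set (315 genes have several). Intensities were taken to log2 and fitted with limma 3.58.1 (lmFit, eBayes) in R 4.3.3, with 1 mean per group over all 12 arrays and 8 residual degrees of freedom. Benjamini-Hochberg adjustment ran over all probe sets. Calls needed an adjusted p under 0.05 and a 1.5-fold change, the limits of the methods. The Local Pooled Error test that the methods name was an alternative, as were leaving out each array, other scalings, filters, variance priors and fold limits. Gene lists are described by counts and medians, with no set test. The scripts were tested on simulated data.

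In anc1Δ cells the deviations of same-numbered untreated and MMS arrays from their group means were correlated. For replicates 1, 2 and 3 r was 0.373, 0.240 and 0.167, each above 0.1. The numbers of the sample titles were therefore taken as a possible pairing, which entered only the fits with a block. Of the differently numbered pairs, untreated 2 with MMS 3 (0.141) and untreated 3 with MMS 1 (0.102) were above 0.1 too, so the pairing is weak. It rests on these values and not on the labels. The fit was made without a block, as in the methods, and the blocked fit was an alternative.

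Titles set the groups, also where another label disagreed. Genes were named by rule: the 12 largest rises and falls with arrays apart and above the dimmest 25%, up to 4 members of a list by p (any member of lists of 12 or fewer), genes the study names, the 6 largest differences each way, and the strain's deleted genes. Other list members were named as examples after their values were seen. The arrays, gene lists and tests were chosen with earlier results of these data known.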

Additional observations from a re-analysis of the deposited data

Results flagged for a closer look

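The MMS response differed between anc1Δ and wildtype cells in 542 genes with a higher and 805 genes with a lower response in anc1Δ cells, by limma's test of the difference (adjusted p under 0.05 and 1.5-fold). With each array centred on its median the numbers were 666 and 627, and the larger share was then on the other side.

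The largest positive differences, anc1Δ minus wildtype on the log2 scale, were 3.04 in YDL218W, 2.90 in RDN18-1, 2.63 in HO, 2.46 in OSI1, 2.36 in CYC1 and 2.36 in IZH4. The largest negative ones were -3.60 in ARG1, -3.25 in ARO5, -3.12 in YNR068C, -2.95 in ARG3, -2.86 in PIR3 and -2.86 in TMT1.

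The actin control probe sets, which are outside the gene measurements, had a 3' to 5' ratio of at least 3.43 on the MMS arrays of anc1Δ cells and at most 1.85 on the untreated arrays. Its part in the results was not tested.

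Of 2771 probe sets that name no gene or several, and that entered no count of genes, 415 passed the limits for the MMS response of anc1Δ cells.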

How the results depend on the processing

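The counts of genes called in anc1Δ cells (1793, with 907 higher and 886 lower) stayed within 1.5 times under every alternative run but the fold limits. So did those of the difference from wildtype (1347, with 542 higher and 805 lower), for which the Local Pooled Error test and the fits to 6 arrays give no value. With no fold limit 3332 genes were called, 1658 higher and 1674 lower, and 1224 differences were lower. With a fold limit of 2 the counts were 661, 353 and 308, and for the difference 440, 155 and 285. Fewer or more genes pass by construction of these limits.

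Leaving out 1 array gave 1761 to 1797 calls in anc1Δ cells and 1190 (without wildtype MMS replicate 2) to 1488 (without wildtype untreated replicate 1) called differences. With the replicate number as a block there were 907 higher and 888 lower calls and 539 and 807 called differences, and the block changed no call of a named gene. With the 6 anc1Δ arrays alone 908 and 888 genes were called, and with the block as well, an alternative chosen after seeing the data, 909 and 889. The Local Pooled Error test gave 913 and 879, of which 1693 were among the 1793.

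Of 210 values of named genes, 148 kept their direction and call under every alternative. Only the difference of MAG1, not called in any setting, turned its sign, to 0.0034 with arrays centred on their median and to 0.0273 without wildtype untreated replicate 3 (-0.18 to 0.03 over all arrays left out). The fold limit of 2 ended 53 calls. Quantile normalization ended the calls of CDC9 and SPI1, centring that of the difference of RAD2, the Local Pooled Error test those of RNR4 and SGS1, and the mean of probe sets that of RAD50, and the causes were not tested. With arrays centred, 51.5% of called differences were higher, against 40.2%. Promoter motif shares, planned as a description, were not run, as no promoter sequences were used here. No dose series, time course or repeat of the MMS treatment bears on these values, and probes near the floor give only uncertain sizes of change.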
